A study of Mus musculus with 9 samples.

Results

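The genes described here code for the ephrins and Eph receptors, the semaphorins with their plexin and neuropilin receptors, the Slits and Robos, and the netrins with their receptors. They were taken from the gene count table by symbol and biotype alone. All protein-coding Eph, ephrin, semaphorin and plexin genes were included. Of the other families the set held Nrp1, Nrp2, Slit1 to Slit3, Robo1 to Robo4, Ntn1, Ntn4, Unc5a to Unc5d and Dcc. Together these are 67 of 54532 genes with an Ensembl identifier. Other netrin genes, such as Ntn5 and Ntng2, are outside the set. Of the 67, 60 had enough counts to be tested, among 16178 genes tested in all. The study sequenced RNA from 9 libraries of mouse stem cells in culture, all of the strain Sv129 x GOF/GFP F1, with 3 libraries for each of 3 cell types. ABSC, which the labels liken to trophoblast stem cells, were kept in Activin A with BMP4 and were at passages 25 to 30. ALSC have no such comparison in the labels. Their medium is taken to be Activin A with LIF, a cytokine that signals through STAT3, although the protocol writes that recipe beside the abbreviation of the ABSC medium, and they were at passages 20 to 25. AFSC, likened to epiblast stem cells, came from blastocysts, were kept in Activin A with bFGF and were at passages 15 to 20. ABSC and ALSC both descend from AFSC that spent over 5 passages in the new medium, so Activin A is common to all groups. How many blastocyst lines were used, and whether the libraries of a type came from separate cultures, is not stated in the sources used here. P-values therefore measure the spread between these libraries, which may be technical, and passage number and cell type cannot be told apart. The labels also name a separate RNA kit for ALSC, so in comparisons with ALSC the kit and the cell type cannot be told apart either.

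Guidance molecules were named for steering growing axons, but they act in many embryonic tissues. Ephrins sit on one cell and bind Eph receptor kinases on the neighbour, so that both cells receive a signal, and this pair sorts cells into separate compartments. Class 3 semaphorins are secreted and mostly act through a neuropilin that binds the ligand and a plexin that carries the signal to the cytoskeleton, whereas Sema3e can bind Plxnd1 directly. Slits are secreted ligands of Robo receptors, and netrins are laminin-related ligands that attract cells through Dcc and repel them through Unc5 receptors, which are also known as dependence receptors.

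Promoter sequences are shown for 5 members, since each had at least one of the larger differences between cell types. They are RefSeq sequences of the build GRCm38.p6, from 250 bases before to 50 bases after the RefSeq start, written 5′ to 3′ on the gene's own strand, and 57 of the 67 members had an entry. The RefSeq start can differ from the gene bounds given further on. For Unc5c the whole window, with its marked motif, lies inside those bounds, and for Nrp2 the RefSeq start lies inside them. Unc5b (chr10:60831532-60831831, minus strand) and Unc5c (chr3:141465314-141465613, plus strand) are the netrin receptors that were highest in ABSC, where the medium held BMP4. Capitals mark GGCGCC, a GC-rich SMAD element, in these first sequences. Sema3e (chr5:14025026-14025325, plus strand), Nrp2 (chr1:62703067-62703366, plus strand) and Efna5 (chr17:62881268-62881567, minus strand) are a ligand, a co-receptor and a ligand that fell in ALSC. Capitals there mark TTCNNNGAA, the STAT motif.
Unc5b: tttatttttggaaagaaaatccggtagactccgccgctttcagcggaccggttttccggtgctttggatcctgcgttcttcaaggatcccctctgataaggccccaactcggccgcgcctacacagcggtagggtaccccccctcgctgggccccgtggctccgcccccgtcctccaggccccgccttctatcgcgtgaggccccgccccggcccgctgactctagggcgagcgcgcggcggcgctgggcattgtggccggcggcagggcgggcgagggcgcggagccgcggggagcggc
Unc5c: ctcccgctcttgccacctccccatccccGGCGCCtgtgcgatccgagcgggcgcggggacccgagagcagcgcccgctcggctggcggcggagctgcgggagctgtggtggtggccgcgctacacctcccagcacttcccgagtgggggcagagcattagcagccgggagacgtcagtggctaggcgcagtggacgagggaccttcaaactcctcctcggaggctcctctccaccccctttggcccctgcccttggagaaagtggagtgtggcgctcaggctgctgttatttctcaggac
Sema3e: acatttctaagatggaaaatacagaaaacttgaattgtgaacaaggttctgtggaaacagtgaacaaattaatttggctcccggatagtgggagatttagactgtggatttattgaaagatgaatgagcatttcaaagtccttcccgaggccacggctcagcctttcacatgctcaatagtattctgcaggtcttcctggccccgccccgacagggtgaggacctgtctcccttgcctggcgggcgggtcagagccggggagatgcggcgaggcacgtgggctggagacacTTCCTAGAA
Nrp2: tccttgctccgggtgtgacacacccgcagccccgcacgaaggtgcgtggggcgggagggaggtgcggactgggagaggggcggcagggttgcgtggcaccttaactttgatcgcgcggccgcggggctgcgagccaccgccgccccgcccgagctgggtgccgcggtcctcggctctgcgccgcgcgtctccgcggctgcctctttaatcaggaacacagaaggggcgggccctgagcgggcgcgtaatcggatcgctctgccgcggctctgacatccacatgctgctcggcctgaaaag
Efna5: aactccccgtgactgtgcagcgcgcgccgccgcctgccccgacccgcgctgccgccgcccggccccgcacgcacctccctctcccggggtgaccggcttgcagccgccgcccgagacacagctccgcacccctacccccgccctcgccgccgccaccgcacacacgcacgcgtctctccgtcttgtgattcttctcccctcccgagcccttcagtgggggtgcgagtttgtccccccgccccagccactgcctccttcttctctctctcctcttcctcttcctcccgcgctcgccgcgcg
Unc5c held 1 GGCGCC and Unc5b held 0, while 11.9% of all 32851 promoters in the table held this motif. The 57 members with an entry have 73 promoters in the table, since some genes have several, and 15 of the 73 (20.5%) held it. Sema3e held 1 TTCNNNGAA, at its last bases, and Nrp2 and Efna5 held 0, against 8.30% of all promoters and 3 of the members' 73 (4.11%). The SMAD box CAGAC stood in 49.6% of all promoters and in 42 of the members' 73 (57.5%), and CANNTG, the E-box, in 72.3% and in 37 (50.7%). All 4 motifs were searched on both strands. GGCGCC, TTCNNNGAA and CANNTG read the same on each strand. The shares were set side by side without regard to the GC content of the promoters, and their differences were not tested. A match describes letters within these windows and is no evidence of binding.

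Total counts ran from 18978651 to 21578737 per library, and the members took 0.211% to 0.265% of them. Libraries numbered 1 stood apart from numbers 2 and 3 in each cell type for part of the genes, as set out for the members further on. Of the markers checked, Pou5f1 of the epiblast was at 908 to 1259 CPM (a count divided by the scaled total of its library) in all 9 libraries. Fgf5, another epiblast marker, was at 13.5 to 18.3 CPM in ABSC, 120 to 166 CPM in ALSC and 184 to 193 CPM in AFSC. Cdx2 of trophoblast stem cells was at 0.834 to 6.42 CPM in ABSC and at or below 0.153 CPM in ALSC and 0.235 CPM in AFSC. Elf5, another defining trophoblast gene, was at or below 0.051 CPM in ABSC. Gata3, not tested, was higher in every ABSC library than in all others (means of 0.749 CPM in ABSC, 0.170 CPM in ALSC and 0.227 CPM in AFSC). Eomes averaged 116, 127 and 122 CPM and Esrrb 102, 99.9 and 102 CPM in the same order. Both overlapped between all types and were not called. Tfap2c was highest in ALSC (8.63, 18.7 and 3.78 CPM). The labelled likeness to trophoblast stem cells is thus only partly borne by these markers. Of other tissues that use guidance genes, some markers were near 0 and others were read in every library. Sox1, Pax6 and Neurog2 of neural cells did not pass 0.404 CPM in any library, while Tubb3 was at 5.85 to 16.0 CPM and Map2 at 7.83 to 12.6 CPM. Cdh5, Tie1 and Emcn of endothelium did not pass 0.303 CPM, while Tek was at 1.84 to 5.77 CPM and Pecam1 at 0.883 to 3.03 CPM. Postn of fibroblasts did not pass 0.261 CPM, while Thy1 was at 3.39 to 13.9 CPM, Col1a1 at 1.22 to 6.33 CPM and Col1a2 at 2.49 to 4.20 CPM. The 5 neural markers summed to 13.8 to 21.2 CPM in ABSC, 16.5 to 27.9 CPM in ALSC and 26.4 to 27.3 CPM in AFSC. The 5 endothelial markers summed to 3.19 to 7.43, 3.49 to 3.91 and 4.99 to 7.55 CPM in the same order, and the 5 fibroblast markers to 9.10 to 17.7, 9.82 to 23.9 and 16.9 to 18.4 CPM. Of these 3 lists edgeR called 0 genes in each comparison without a block for the library number. At an unadjusted p under 0.05 there were 3, 3 and 1 in ABSC against AFSC, ALSC against AFSC and ABSC against ALSC, and DESeq2 called 0, 1 (Tek) and 0. With the block, edgeR called Tubb3 lower in ABSC (adjusted p = 0.00619) and in ALSC (0.0264) than in AFSC, and Tek lower in ALSC than in AFSC (0.00191) and higher in ABSC than in ALSC (0.0222). It also called Thy1 lower in ABSC than in AFSC (0.0398) and than in ALSC (0.0276). Col3a1, which passed the filter on low counts only through AFSC, was at 0.202 to 0.470 CPM in ABSC, 0.051 to 0.469 CPM in ALSC and 0.873 to 0.939 CPM in AFSC.

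The markers of extraembryonic endoderm summed to 5.15 to 7.52 CPM in ABSC, 12.2 to 19.4 CPM in ALSC and 9.96 to 11.6 CPM in AFSC. Gata6 and Sox17 fell in ABSC against ALSC, and Sox17 against AFSC. Gata6 was also called lower in ABSC than in AFSC by DESeq2 and by edgeR with the block (adjusted p = 0.00161). With the block edgeR called Gata6 higher in ALSC than in AFSC (0.0156) and Dab2 lower in ABSC than in ALSC (0.0328). Gata4, which passed the filter only through ALSC, was at 0.049 to 0.261 CPM in ABSC, 0.967 to 1.33 CPM in ALSC and 0.141 to 0.823 CPM in AFSC. Sox17 was at 0 to 0.261 CPM in ABSC, 3.00 to 3.81 CPM in ALSC and 1.13 to 2.93 CPM in AFSC. The 6 trophoblast stem cell markers summed to 158 to 271, 157 to 294 and 189 to 258 CPM. Eomes and Esrrb made up most of these sums, which therefore say little about the other markers. Of the 6, Tfap2c rose in ALSC against AFSC. With the block Tfap2c was called lower in ABSC than in ALSC (edgeR adjusted p = 0.0247). Cdx2 passed the filter only through ABSC, so its levels above are a description. The 5 epiblast markers summed to 2875 to 3280, 2835 to 3171 and 3509 to 3617 CPM. Against AFSC, 1 rose (Pou5f1) and 4 fell (Fgf5, Otx2, Dnmt3b and Pou3f1) in ABSC. In ALSC 2 fell against AFSC (Pou5f1 and Pou3f1), or 3 with the block (also Dnmt3b). In ABSC against ALSC 2 rose (Pou5f1 and Pou3f1) and 2 fell (Fgf5 and Otx2). The part of these lists in the guidance gene differences was not tested. In bulk RNA, fewer cells of a type and less RNA per cell cannot be told apart.

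Per gene length, the most abundant members in the 3 cell types were receptors (RPKM, which is CPM per kilobase of exon, mean of 3 libraries). Epha2, an Eph kinase of epithelia, stood at 31.5 RPKM in ABSC, 60.3 in ALSC and 82.7 in AFSC. Epha1 stood at 73.5, 42.5 and 59.5 RPKM in the same order, and Unc5b at 41.6, 16.5 and 18.5 RPKM. Plexins Plxna1 (31.3, 26.2 and 31.1 RPKM) and Plxnb2 (29.6, 25.3 and 27.3 RPKM) were also abundant. Among ligands, the transmembrane semaphorin Sema6a (20.9, 26.9 and 33.2 RPKM) and the transmembrane ephrin Efnb2 (22.9, 20.9 and 24.2 RPKM) led.

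**Figure D1:**
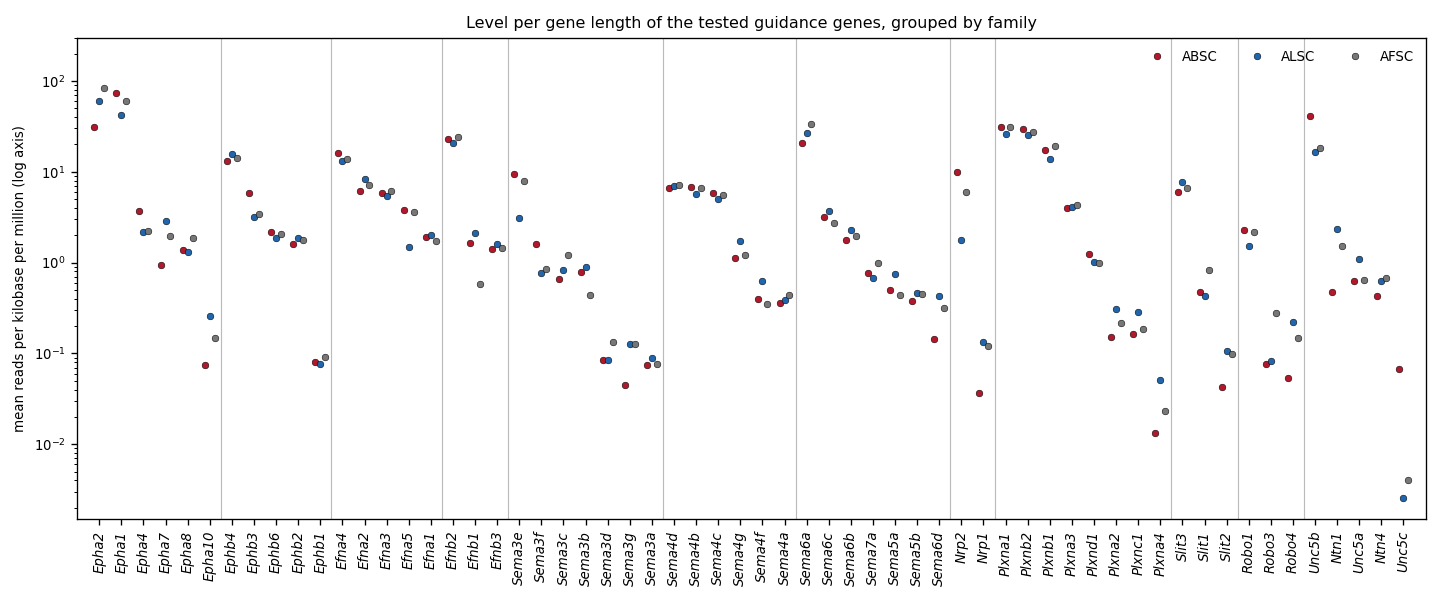
Mean level per gene length of the 60 tested guidance genes on a log axis (RPKM), by family, with 1 point for each of ABSC, ALSC and AFSC (mean of 3 libraries). Epha2 in AFSC has the highest level, 82.7 RPKM, and Unc5c has the lowest levels, in ALSC and AFSC, where 3 and 5 counts were read over all libraries.

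The 7 members not tested were at or below 0.519 CPM in every library. Dcc, the attractive netrin receptor, had 0 counts in all 9 libraries, where a floor of 3 counts per library corresponds to 0.138 to 0.157 CPM. The others were the Eph receptors Epha3 (32 counts over all libraries), Epha5 (52) and Epha6 (4), the plexin Plxnb3 (11), the Robo receptor Robo2 (31) and the netrin receptor Unc5d (28). Of the 60 tested, 4 (Plxna4, Robo4, Sema3g and Unc5c) passed the filter on low counts only with the help of the group where they were highest, so they are described by their values alone, with no test.

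Counts of calls are given for the other 56 tested members, beside the 15193 genes that passed the filter in the same way. Any difference among the 3 cell types was called for 20 of the 56, beside 14.7% of those genes, and with the library number as a block for 38, beside 37.6%. The count was 13 without ABSC 2, beside 1395 of all 16625 genes tested then, and 13 without AFSC 3, beside 1431 of 16553. In ABSC against AFSC, which asks what BMP4 in place of bFGF goes with, 3 members rose and 8 fell, or 19.6% of the 56, beside 7.94% of those genes. In ALSC against AFSC, which asks the same of LIF, 1 rose and 7 fell, or 14.3%, beside 7.08%. In ABSC against ALSC, 9 rose and 8 fell, or 30.4%, beside 11.0%. The median log2 fold changes of the 56 were -0.082, -0.076 and -0.11, against -0.0043, 0.0026 and -0.011 over all 16178 genes tested. Their median absolute changes were 0.24, 0.26 and 0.33 on the log2 scale, against 0.16, 0.18 and 0.20 over all genes. Of all 16178 genes tested, 14.8% were called for any difference (37.0% with the block). ABSC against AFSC called 7.98% of them (3.98% higher and 4.0% lower) and ALSC against AFSC 7.04% (3.54% higher and 3.50% lower). ABSC against ALSC called 11.0% (5.41% higher and 5.56% lower).

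With the library number as a block, the same 3 comparisons called 19, 20 and 29 of the 56 members, beside 19.6%, 22.7% and 29.0% of the 15193 genes. Of all genes tested, the block called 19.4%, 22.2% and 28.5%. Its calls of members included all those made without it. In ABSC against AFSC the count among the 56 was 7 without ABSC 2, 7 without ABSC 3, 6 without AFSC 2 and 4 without AFSC 3. Beside these stood 685 of 16625, 746 of 16579, 686 of 16530 and 667 of 16553 genes tested then. In ALSC against AFSC it was 5 without AFSC 2, without AFSC 3 and without ALSC 3, beside 349 of 16530, 345 of 16553 and 559 of 16572 genes. Of the 36 calls in the 3 comparisons, 21 held in every fit that left out 1 library and under every other setting tried. With library size as the only scaling, 8 of the 56 rose and 8 fell in ABSC against ALSC, while the split over all genes was 616 higher and 1132 lower in place of 875 and 900. ABSC and ALSC were each compared with the same 3 AFSC libraries, so the comparisons with AFSC are not independent of each other. Rose, fell and called are used of edgeR adjusted p-values under 0.05, without the block unless it is named and by DESeq2 only where that is said, and SE is the standard error of the log2 fold change.

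**Figure D2:**
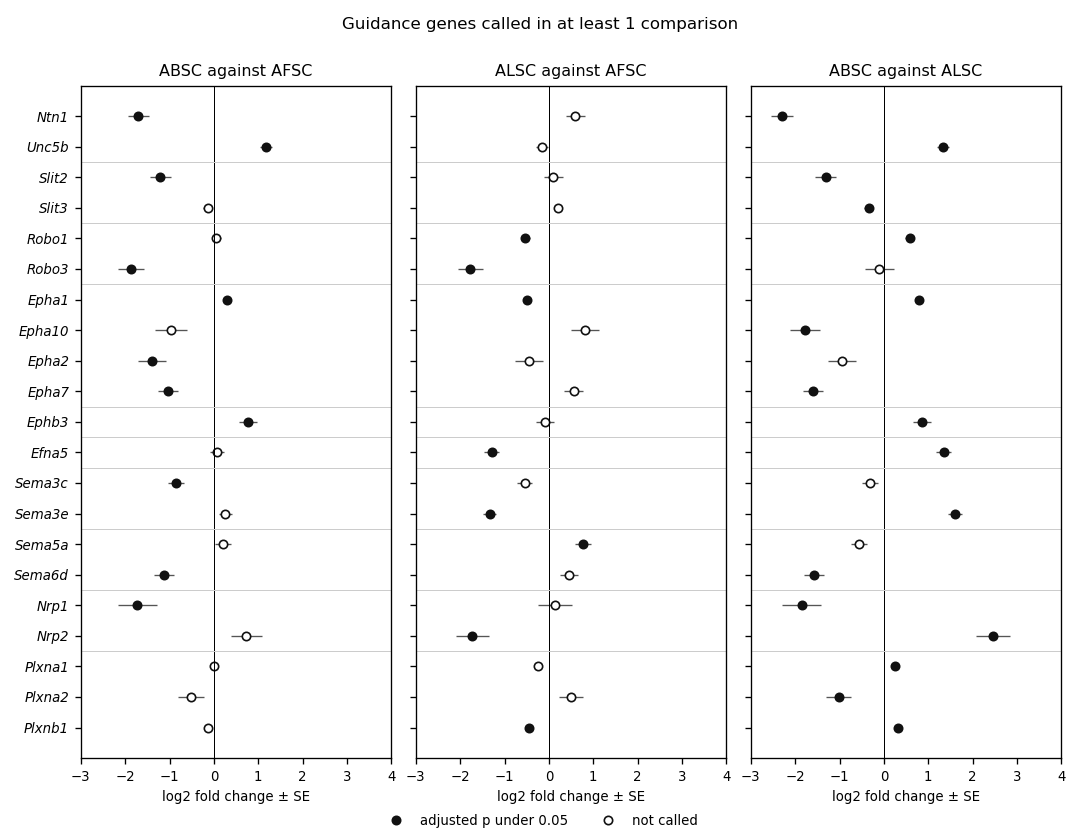
Log2 fold change with its SE for 21 guidance genes called in at least 1 comparison, without those that passed the filter only through their highest group, in 3 panels for ABSC against AFSC, ALSC against AFSC and ABSC against ALSC (n = 3 libraries per cell type). Filled points have an adjusted p under 0.05: Unc5b lies right of 0 and Ntn1 left of 0 in both ABSC panels, while Sema3e, Efna5 and Nrp2 lie left of 0 in ALSC against AFSC and right of 0 in ABSC against ALSC.

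The netrin Ntn1 fell and the repulsive netrin receptor Unc5b rose in ABSC, in both comparisons. Ntn1, a secreted netrin (chromosome 11, 68209364 to 68400823), was at 2.16, 2.45 and 4.30 CPM in ABSC, 16.6, 13.2 and 14.1 CPM in ALSC, and 10.2, 8.35 and 10.4 CPM in AFSC. All ABSC libraries lay below all others, and all ALSC libraries lay above all AFSC libraries. Ntn1 fell in ABSC against AFSC (log2 difference -1.70, SE 0.24, edgeR adjusted p = 0.00202) and against ALSC (-2.30, SE 0.24, edgeR adjusted p = 0.000313), and both calls held in every setting. Its log2 difference in ALSC against AFSC was 0.60 (edgeR adjusted p = 0.145, and 0.0143 with the library number as a block). The other netrin among the members, Ntn4, was at 1.04 to 2.50 CPM in ABSC, 1.98 to 2.89 CPM in ALSC and 2.26 to 2.82 CPM in AFSC. It was not called with all 9 libraries in the fit, with or without the block.

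Unc5b, a netrin receptor also known in blood vessels (chromosome 10, 60762593 to 60831581), was at 264, 267 and 249 CPM in ABSC, 133, 88.1 and 89.7 CPM in ALSC, and 112, 118 and 117 CPM in AFSC. The ABSC libraries were far above the rest, while ALSC and AFSC overlapped. It rose in ABSC against AFSC 2.25-fold (log2 fold change 1.17, SE 0.14, edgeR adjusted p = 0.000654) and against ALSC 2.51-fold (1.33, SE 0.14, edgeR adjusted p = 0.000289), and the calls held in every setting. ALSC against AFSC gave -0.16 (SE 0.13, edgeR adjusted p = 0.557), and -0.38 without ALSC 1 (0.00472). Unc5c, a receptor of the same family (chromosome 3, 141465216 to 141834924), had 20, 24 and 33 counts in ABSC, 1, 0 and 2 counts in ALSC, and 0, 0 and 5 counts in AFSC. It was thus read in each ABSC library at about 1 CPM and close to the floor elsewhere. The ratio of summed counts, scaled by library totals, was 16.1 for ABSC over AFSC (77 and 5 counts) and 26.2 for ABSC over ALSC (77 and 3 counts). It passed the filter on low counts through ABSC alone, so this difference is a description. AFSC 3 held all 5 counts of its group. Unc5a, at 1.36 to 4.76 CPM in ABSC, 3.15 to 6.29 CPM in ALSC and 2.08 to 3.14 CPM in AFSC, was called with the block but not without it, as lower in ABSC than in ALSC (-0.87, edgeR adjusted p = 0.0213). Its exons share 34 bases with Hk3. As Dcc had no counts, Unc5b made up most of the reads of the netrin receptors among the members. Neo1, a cell surface partner outside the members, was at 39.0 to 51.6 CPM over all libraries. Neo1 rose in ABSC against AFSC (0.30, edgeR adjusted p = 0.0454). That call was lost in 7 of 9 fits that left out 1 library, with library size as the only scaling and without the filter on low counts.

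Of the Slits, Slit2 and Slit3 were lower in ABSC than in ALSC, and of the Robos, Robo3 fell in both derived cell types. Slit2, a secreted repellent (chromosome 5, 47983138 to 48307733), was at 0.932, 1.15 and 1.16 CPM in ABSC, 3.07, 2.87 and 2.14 CPM in ALSC, and 2.78, 2.45 and 2.30 CPM in AFSC. ABSC lay below both other types, which overlapped. It fell in ABSC against AFSC (log2 difference -1.21, SE 0.24, edgeR adjusted p = 0.0110) and against ALSC (-1.31, SE 0.23, edgeR adjusted p = 0.00635) in every setting. ALSC against AFSC gave 0.10 (edgeR adjusted p = 0.842), and -0.0053 without ALSC 1. Slit3 was the most abundant Slit, at 41.9, 36.2 and 32.3 CPM in ABSC, 48.5, 47.1 and 44.5 CPM in ALSC, and 41.3, 40.15 and 40.5 CPM in AFSC. It fell slightly in ABSC against ALSC (-0.34, edgeR adjusted p = 0.0470). That call was lost in 8 of 9 fits that left out 1 library (all but ABSC 1; adjusted p 0.0657 to 0.160) and with only these 2 cell types in the fit (0.116). Slit1 was at 2.58 to 3.13 CPM in ABSC, 1.83 to 3.44 CPM in ALSC and 3.96 to 5.52 CPM in AFSC. Both derived types lay below AFSC, and the differences were called with the block but not without it, in ABSC (-0.82, edgeR adjusted p = 0.0831, and 0.0227 with the block) and in ALSC (-0.96, edgeR adjusted p = 0.0503, and 0.00973 with the block). DESeq2 also called Slit1 in both.

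Robo3, a Robo receptor known for midline crossing of axons (chromosome 9, 37415669 to 37433246), was at 0.540, 0.522 and 0.505 CPM in ABSC, 0.551, 0.626 and 0.509 CPM in ALSC, and 1.60, 2.50 and 1.69 CPM in AFSC. ABSC and ALSC overlapped at about 0.5 CPM, below every AFSC library. It fell in ABSC (log2 fold change -1.87, SE 0.29, edgeR adjusted p = 0.00321) and in ALSC (-1.77, SE 0.28, edgeR adjusted p = 0.00616) against AFSC in every setting, and ABSC against ALSC gave -0.10 (SE 0.32, edgeR adjusted p = 0.887). Robo1, the abundant Robo (chromosome 16, 72308306 to 73046095), was at 40.6, 35.3 and 37.2 CPM in ABSC, 27.6, 24.2 and 23.7 CPM in ALSC, and 31.9, 38.4 and 38.7 CPM in AFSC. The ALSC libraries were the lowest, and ABSC and AFSC overlapped (log2 difference 0.054, edgeR adjusted p = 0.861). Robo1 fell in ALSC against AFSC (-0.53, SE 0.11, edgeR adjusted p = 0.0172) and was higher in ABSC than in ALSC (0.58, SE 0.11, edgeR adjusted p = 0.00699). The call against AFSC was lost without AFSC 2 (0.0846), AFSC 3 (0.0831), ALSC 2 (0.0617) or ALSC 3 (0.0668), while the call against ALSC held in every setting. Robo4, a Robo of endothelium, was at 0.147, 0.261 and 0.455 CPM in ABSC, 0.367, 1.36 and 1.78 CPM in ALSC, and 0.257, 0.991 and 1.08 CPM in AFSC. Its lowest value in each type was the library numbered 1, and ABSC overlapped both other types. It passed the filter only through ALSC, where it was highest, so no test is given.

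**Figure D3:**
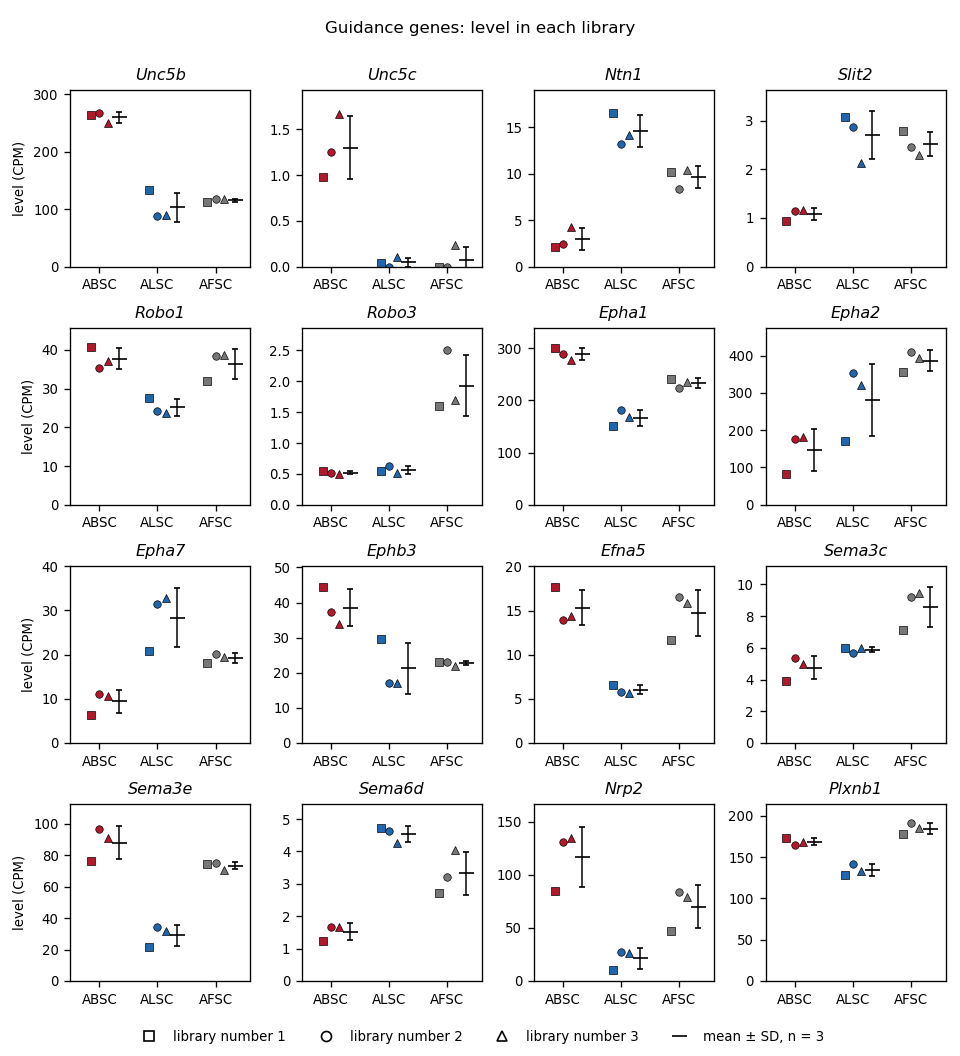
Level in each of the 9 libraries (CPM) for 16 guidance genes, with the mean and SD of 3 libraries per cell type beside the points and the marker shape giving the library number. Unc5b, Unc5c, Ntn1, Slit2, Epha7 and Sema6d separate ABSC from the other types, while Sema3e, Efna5, Robo1 and Nrp2 are lowest in ALSC.

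Among the Eph receptors, Epha1 differed between all 3 cell types and Epha7 was lowest in ABSC. Epha1, a receptor of epithelial cells (chromosome 6, 42358487 to 42373268), was at 300.4, 289 and 277 CPM in ABSC, 150.3, 181 and 169 CPM in ALSC, and 241, 224 and 236 CPM in AFSC. The groups did not overlap, in the order ABSC, AFSC, ALSC. It fell in ALSC against AFSC (log2 difference -0.49, SE 0.07, edgeR adjusted p = 0.00444) and was higher in ABSC than in ALSC (0.79, SE 0.07, edgeR adjusted p = 0.000136) in every setting. Its small rise in ABSC against AFSC (0.31, SE 0.07, edgeR adjusted p = 0.0285) was lost when any 1 library of these 2 types was left out (adjusted p 0.0515 to 0.131). Its exons share 236 bases with Zyx, and the unstranded reads there cannot be told apart. Epha7, a receptor known from the nervous system (chromosome 4, 28813131 to 28967499), was at 6.38, 11.2 and 10.7 CPM in ABSC, 20.7, 31.5 and 32.8 CPM in ALSC, and 18.1, 20.2 and 19.5 CPM in AFSC. It fell in ABSC against AFSC (-1.04, SE 0.22, edgeR adjusted p = 0.0189) and against ALSC (-1.59, SE 0.22, edgeR adjusted p = 0.00180). The first call was lost without AFSC 2 (0.0785) and without AFSC 3 (0.0712), and the second held in every setting. ALSC lay above AFSC in all libraries, a difference called with the block but not without it (0.56, edgeR adjusted p = 0.165, and 0.00371 with the block).

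Epha2, the most abundant Eph receptor of AFSC per length (chromosome 4, 141301240 to 141329384), was at 83.3, 177 and 181 CPM in ABSC, 172, 353 and 321 CPM in ALSC, and 356, 410.4 and 393 CPM in AFSC. All ABSC libraries were below AFSC, and in each type the lowest value was the library numbered 1. It fell in ABSC against AFSC (log2 difference -1.39, SE 0.32, edgeR adjusted p = 0.0283). The call was lost without ABSC 2 (0.0641), ABSC 3 (0.0521), AFSC 2 (0.0878) or AFSC 3 (0.0815) and without the filter on low counts (0.169). ALSC against AFSC gave -0.46 (SE 0.31, edgeR adjusted p = 0.460). In ABSC against ALSC, the log2 fold change was -0.94 (edgeR adjusted p = 0.0945, against 0.0477 with the block and 0.0224 without ALSC 1). Epha10, at 0.589, 0.470 and 0.556 CPM in ABSC, 2.57, 1.77 and 1.22 CPM in ALSC, and 0.875, 0.991 and 1.31 CPM in AFSC, fell in ABSC against ALSC in every setting (-1.78, SE 0.35, edgeR adjusted p = 0.00963). Epha4 was called with the block but not without it, as higher in ABSC than in AFSC (0.63, edgeR adjusted p = 0.00855) and than in ALSC (0.77, edgeR adjusted p = 0.00221). It stood at 15.8, 33.4 and 39.3 CPM in ABSC, 9.09, 20.4 and 22.4 CPM in ALSC, and 14.6, 19.02 and 20.8 CPM in AFSC. Epha8, at 4.80 to 8.09 CPM in ABSC, 5.44 to 7.34 CPM in ALSC and 7.74 to 9.34 CPM in AFSC, was likewise called with the block but not without it, as lower than in AFSC in ABSC (-0.46, edgeR adjusted p = 0.0334) and in ALSC (-0.53, edgeR adjusted p = 0.0152). Of the 6 EphA receptors tested, 1 rose and 2 fell in ABSC against AFSC, 0 rose and 1 fell in ALSC against AFSC, and 1 rose and 2 fell in ABSC against ALSC, beside 7.98%, 7.04% and 11.0% of all genes.

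Of the 5 EphB receptors, Ephb3 alone was called without the block, by edgeR and by DESeq2. Ephb3, a receptor of intestinal crypts (chromosome 16, 21204755 to 21223305), was at 44.3, 37.4 and 34.0 CPM in ABSC, 29.5, 16.9 and 17.2 CPM in ALSC, and 23.0, 23.1 and 22.01 CPM in AFSC. All ABSC libraries were above the others, while ALSC and AFSC overlapped. It rose in ABSC against AFSC (log2 difference 0.76, SE 0.20, edgeR adjusted p = 0.0421) and against ALSC (0.86, SE 0.20, edgeR adjusted p = 0.0216). The call against AFSC was lost when any 1 library of these 2 types was left out (0.0669 to 0.143) and with library size as the only scaling (0.0690). The call against ALSC was lost without ABSC 2 (0.0613), ALSC 2 (0.0696) or ALSC 3 (0.0734) and with only these 2 types in the fit (0.0687). In ALSC against AFSC no EphB receptor was called by edgeR, 0 passed an unadjusted p of 0.05 and DESeq2 called 0. Ephb3 gave -0.095 there, and 0.038 without ALSC 2 or without ALSC 3. Ephb4, which pairs with Efnb2 in vessels, was the most abundant EphB receptor at 50.2 to 74.2 CPM in ABSC, 66.8 to 78.7 CPM in ALSC and 59.9 to 74.5 CPM in AFSC. It was called lower in ABSC than in ALSC with the block but not without it (-0.25, edgeR adjusted p = 0.0103). Ephb2 (17.4 to 29.2 CPM over all libraries), Ephb6 (5.70 to 9.34 CPM) and Ephb1 (0.360 to 0.944 CPM) were not called.

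Efna5 stood out among the ephrins by its low level in ALSC. Efna5, an ephrin held to the membrane by a lipid anchor (chromosome 17, 62604184 to 62881317), was at 17.6, 13.9 and 14.4 CPM in ABSC, 6.61, 5.74 and 5.70 CPM in ALSC, and 11.7, 16.5 and 15.9 CPM in AFSC. Every ALSC library lay below every other library, and ABSC and AFSC overlapped. It fell in ALSC against AFSC (log2 difference -1.29, SE 0.17, edgeR adjusted p = 0.00220) and was higher in ABSC than in ALSC (1.35, SE 0.17, edgeR adjusted p = 0.000829) in every setting. ABSC against AFSC gave 0.060 (edgeR adjusted p = 0.904), with -0.046 without ABSC 1, -0.077 without AFSC 1 and -0.19 without the 3 libraries numbered 1. The other A-type ephrins were Efna4 (19.9 to 27.5 CPM over all libraries), Efna3 (8.97 to 21.9 CPM), Efna2 (10.9 to 19.8 CPM) and Efna1 (1.62 to 6.77 CPM). By edgeR none was called without the block, and with it Efna4 was higher (0.29, edgeR adjusted p = 0.0208; DESeq2 called it without the block) and Efna2 lower (-0.44, edgeR adjusted p = 0.00398) in ABSC than in ALSC.

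No B-type ephrin was called by edgeR in any comparison, although Efnb1 had an unadjusted p under 0.05 in ABSC and in ALSC against AFSC and was called in both by DESeq2. Efnb1, a transmembrane ephrin, was at 1.86, 7.10 and 8.09 CPM in ABSC, 3.90, 8.29 and 9.52 CPM in ALSC, and 1.90, 2.36 and 1.83 CPM in AFSC. Libraries 2 and 3 of both derived types were far above AFSC, whereas ABSC 1 lay within the AFSC range. Its log2 fold change was 1.48 in ABSC (edgeR adjusted p = 0.119, and 0.00772 with the block) and 1.83 in ALSC (edgeR adjusted p = 0.0589, and 0.00149 with the block). Efnb2, the abundant transmembrane ephrin, was at 128, 170.2 and 173 CPM in ABSC, 98.8, 166 and 165 CPM in ALSC, and 121, 191 and 187 CPM in AFSC. The lowest value of each type was the library numbered 1, and with the block Efnb2 was lower in ALSC than in AFSC (-0.22, edgeR adjusted p = 0.0173). Efnb3 stayed at 3.65 to 5.74 CPM.

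Of the class 3 semaphorins, Sema3e fell in ALSC and Sema3c fell in ABSC. Sema3e, a secreted semaphorin that repels vessels (chromosome 5, 14025276 to 14256689), was at 76.6, 96.9 and 90.8 CPM in ABSC, 21.4, 34.1 and 31.9 CPM in ALSC, and 74.7, 74.9 and 70.9 CPM in AFSC. The ALSC libraries lay far below the rest, and the ABSC libraries lay above AFSC by less than the test could call (log2 fold change 0.26, SE 0.15, edgeR adjusted p = 0.391). It fell in ALSC against AFSC (-1.34, SE 0.16, edgeR adjusted p = 0.00126) and was 3.03-fold higher in ABSC than in ALSC (1.60, SE 0.16, edgeR adjusted p = 0.000207), both in every setting. Sema3c, a secreted semaphorin of the outflow tract (chromosome 5, 17574281 to 17730268), was at 3.92, 5.38 and 4.95 CPM in ABSC, 5.97, 5.68 and 6.004 CPM in ALSC, and 7.15, 9.20 and 9.43 CPM in AFSC. It fell in ABSC against AFSC (-0.86, SE 0.17, edgeR adjusted p = 0.0132), a call lost without AFSC 2 (0.0696) and without AFSC 3 (0.0727), and in ALSC it was -0.55 (edgeR adjusted p = 0.0884, and 0.0157 with the block; DESeq2 called it).

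Sema3g was at 0.147 to 0.253 CPM in ABSC, 0.505 to 0.712 CPM in ALSC and 0.463 to 0.708 CPM in AFSC, with 3 to 5, 10 to 14 and 9 to 15 counts per library. Every ABSC library lay below every other library, and ALSC and AFSC overlapped. As it passed the filter only with the help of its highest group, no test is given. Sema3f and Sema3b were called by edgeR with the block but not without it. DESeq2 called Sema3f in ABSC against both other types and Sema3b in ALSC against AFSC without the block. Sema3f, a ligand of Nrp2, stood at 9.81, 8.10 and 7.13 CPM in ABSC, 6.24, 3.18 and 2.44 CPM in ALSC, and 5.40, 3.73 and 4.04 CPM in AFSC, so ABSC did not overlap the others. With the block it was higher in ABSC than in AFSC (0.93, edgeR adjusted p = 0.00191) and than in ALSC (1.12, edgeR adjusted p = 0.000402). Sema3b, at 3.59 to 4.02 CPM in ABSC, 3.00 to 6.65 CPM in ALSC and 1.69 to 2.68 CPM in AFSC, was higher with it in ABSC (0.86, edgeR adjusted p = 0.0161) and in ALSC (0.96, edgeR adjusted p = 0.00735) than in AFSC. Sema3a (0.442 to 1.77 CPM over all libraries) and Sema3d (0.392 to 1.75 CPM) were not called.

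Among the transmembrane semaphorins, Sema6d fell in ABSC and Sema5a rose in ALSC. Sema6d, a plexin A ligand known from the developing heart (chromosome 2, 124089969 to 124667770) was at 1.23, 1.67 and 1.67 CPM in ABSC, 4.73, 4.64 and 4.27 CPM in ALSC, and 2.73, 3.21 and 4.04 CPM in AFSC. The 3 groups did not overlap, with ABSC lowest and ALSC highest. Sema6d fell in ABSC against ALSC in every setting (log2 fold change -1.58, SE 0.22, edgeR adjusted p = 0.00174) and against AFSC (-1.13, SE 0.22, edgeR adjusted p = 0.0119, and 0.0637 without AFSC 3), while ALSC against AFSC gave 0.45 (edgeR adjusted p = 0.244). Sema5a, whose outer part carries thrombospondin repeats (chromosome 15, 32244810 to 32696341) was at 11.9, 8.41 and 8.04 CPM in ABSC, 16.0, 13.5 and 12.4 CPM in ALSC, and 7.36, 8.68 and 8.45 CPM in AFSC. It rose in ALSC against AFSC (0.77, SE 0.18, edgeR adjusted p = 0.0282), the 1 member to do so, and the call was lost when any 1 library of these 2 types was left out (0.0502 to 0.101). With the block, and by DESeq2 without it, Sema5a was also lower in ABSC than in ALSC (-0.56, edgeR adjusted p = 0.00744 with the block).

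Sema6a, a plexin A ligand and the most abundant semaphorin, was at 163, 190.2 and 196 CPM in ABSC, 149.9, 291 and 268 CPM in ALSC, and 259, 312 and 304 CPM in AFSC. The ABSC libraries lay below AFSC, with a log2 fold change of -0.67 that was called with the block (edgeR adjusted p = 0.0394) and by DESeq2 but not by edgeR without it (0.0815). Of the class 4 semaphorins, which are transmembrane and include the plexin B ligand Sema4d, 0 of 6 were called by edgeR in each comparison. At an unadjusted p under 0.05 there were 0, 1 (Sema4f) and 1 (Sema4c) in ABSC against AFSC, ALSC against AFSC and ABSC against ALSC, and DESeq2 called 0 in each. Sema4d was at 43.4 to 65.1 CPM in ABSC, 49.5 to 56.2 CPM in ALSC and 53.4 to 57.2 CPM in AFSC, with overlap between all types. With the block, Sema4b was lower in ALSC than in AFSC (-0.24, edgeR adjusted p = 0.0337) and higher in ABSC than in ALSC (0.25, edgeR adjusted p = 0.0239), Sema4f was higher in ALSC than in AFSC (0.81, edgeR adjusted p = 0.0276) and Sema4g was lower in ABSC than in ALSC (-0.64, edgeR adjusted p = 0.0133). Over all libraries Sema4b ran from 27.0 to 42.6 CPM, Sema4c from 21.5 to 29.4 CPM, Sema4a from 1.58 to 2.91 CPM, Sema4f from 1.41 to 4.86 CPM, Sema4g from 3.50 to 12.3 CPM and Sema5b from 2.48 to 3.82 CPM. Sema6c, at 15.4 to 25.6 CPM in ABSC, 16.1 to 33.04 CPM in ALSC and 13.7 to 20.2 CPM in AFSC, was called higher in ALSC than in AFSC with the block but not without it (0.38, edgeR adjusted p = 0.0195).

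The neuropilins, the ligand-binding receptors of class 3 semaphorins, were unequal in level and changed in opposite directions between ABSC and ALSC. Nrp2, the abundant one (chromosome 1, 62703285 to 62818695), was at 84.4, 131 and 134 CPM in ABSC, 9.87, 27.5 and 26.5 CPM in ALSC, and 46.8, 84.0 and 79.3 CPM in AFSC. The groups did not overlap, with ABSC highest and ALSC lowest, and in each type the library numbered 1 was the lowest. Nrp2 was 5.50-fold higher in ABSC than in ALSC (log2 fold change 2.46, SE 0.38, edgeR adjusted p = 0.00381), in every setting. It fell in ALSC against AFSC (-1.72, SE 0.37, edgeR adjusted p = 0.0264). That call was lost without AFSC 2 (0.0980), AFSC 3 (0.0930) or ALSC 3 (0.0582) and without the filter on low counts (0.144), but not with the block (0.000172). ABSC against AFSC gave 0.73 (edgeR adjusted p = 0.294), called with the block (0.00562). Nrp1, which also binds VEGF (chromosome 8, 128358604 to 128503363) was at 0.294, 0.470 and 0.303 CPM in ABSC, 0.918, 1.83 and 1.17 CPM in ALSC, and 1.60, 0.661 and 1.31 CPM in AFSC. It fell in ABSC against AFSC (-1.72, SE 0.45, edgeR adjusted p = 0.0426) and against ALSC (-1.85, SE 0.45, edgeR adjusted p = 0.0257), below every library of both types. The first call was lost without any 1 ABSC library, AFSC 1, AFSC 3 or ALSC 3 (0.0650 to 0.151) and with only these 2 types in the fit (0.0531), and the second without any 1 ABSC library, ALSC 2 or ALSC 3 (0.0527 to 0.0960).

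Of the plexins, the signalling receptors of semaphorins, Plxnb1 and Plxna1 were higher and Plxna2 was lower in ABSC than in ALSC. Of 7 tested other than Plxna4, 0 were called in ABSC against AFSC by edgeR (0 at an unadjusted p under 0.05, and 0 by DESeq2), beside 7.94% of the genes that passed the filter likewise. There was 1 fallen in ALSC against AFSC, beside 7.08%, and 2 risen and 1 fallen in ABSC against ALSC, beside 11.0%. Levels ran from at most 0.189 CPM for Plxnb3 to 225 CPM and more for Plxna1. Plxnb1, the receptor of Sema4d (chromosome 9, 109095389 to 109119917), was at 173, 164 and 168 CPM in ABSC, 128, 142 and 133 CPM in ALSC, and 177, 191 and 185 CPM in AFSC. The ALSC libraries were the lowest, below every library of the other types. It fell in ALSC against AFSC (log2 difference -0.46, SE 0.06, edgeR adjusted p = 0.00223) and was higher in ABSC than in ALSC (0.33, SE 0.06, edgeR adjusted p = 0.00675) in every setting, and ABSC against AFSC gave -0.13 (edgeR adjusted p = 0.250). Its exons share 257 bases with Gm7628. Plxna1, a plexin that pairs with neuropilins (chromosome 6, 89316314 to 89362620) was at 301, 285 and 263 CPM in ABSC, 237, 252 and 225 CPM in ALSC, and 277, 285 and 282 CPM in AFSC. It was higher in ABSC than in ALSC (0.25, SE 0.06, edgeR adjusted p = 0.0329), and in ALSC against AFSC it gave -0.24 (edgeR adjusted p = 0.0501, and 0.00358 with the block; DESeq2 called it). The call against ALSC was lost without ABSC 1, ABSC 2, AFSC 2, AFSC 3, ALSC 1 or ALSC 3 (0.0513 to 0.105), with library size as the only scaling (0.109) and with only these 2 types in the fit (0.0974). Its exons share 970 bases with Gm26811.

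Plxna2, at 2.45, 2.61 and 2.78 CPM in ABSC, 7.57, 4.95 and 3.31 CPM in ALSC, and 3.19, 4.15 and 3.89 CPM in AFSC, fell in ABSC against ALSC (log2 fold change -1.01, edgeR adjusted p = 0.0465). The call rested on ALSC 1 in part, as the change was -0.65 without it, and was lost in 8 of 9 fits that left out 1 library (all but ALSC 3; 0.0576 to 0.142) and with only these 2 types in the fit (0.105). Plxna4 was at 0.098 to 0.261 CPM in ABSC, 0.611 to 0.886 CPM in ALSC and 0.141 to 0.515 CPM in AFSC. All ALSC libraries lay above the others, and no test is given, as it passed the filter only through ALSC. Plxnb2, which is known as a receptor of class 4 semaphorins, was at 265, 219.5 and 202 CPM in ABSC, 232, 182 and 173 CPM in ALSC, and 237, 197 and 199.5 CPM in AFSC. With the block but not without it, Plxnb2 was called higher (0.23, edgeR adjusted p = 0.00329) and Plxnc1 lower (-0.83, edgeR adjusted p = 0.0323) in ABSC than in ALSC. Plxnc1 ran from 0.783 to 2.01 CPM in ABSC, 2.29 to 2.48 CPM in ALSC and 1.37 to 1.75 CPM in AFSC. Plxna3 (27.4 to 36.8 CPM over all libraries) and Plxnd1, the direct receptor of Sema3e (5.89 to 11.8 CPM), were not called.

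A list of 50 partner genes of these receptors (cell surface partners, adaptors and cytoplasmic effectors) gave 49 matched symbols and 47 tested genes, and the list was chosen with earlier results of these data known. In ABSC against AFSC 7 rose and 4 fell, in ALSC against AFSC 2 rose and 2 fell, and in ABSC against ALSC 5 rose and 5 fell, beside 7.98%, 7.04% and 11.0% of all genes. With the block these were 11 risen and 7 fallen, 8 and 4, and 10 and 8, beside 19.4%, 22.2% and 28.5% of all genes. Dpysl3, a cytoskeletal effector of semaphorin signalling, was at 60.3 ± 5.89 CPM in ABSC, 16.9 ± 1.16 CPM in ALSC and 11.7 ± 1.86 CPM in AFSC (SD, n = 3 each). It rose in ABSC against AFSC (log2 difference 2.36, edgeR adjusted p = 9.9e-06) and against ALSC (1.83, edgeR adjusted p = 2.2e-05). Fes, a kinase downstream of plexin A, rose in ABSC against both (2.06 and 1.75), as did the Rac effector Pak1 (0.55 and 0.63), while Srgap3, a partner of Robo, rose in ABSC against AFSC (1.00), and the Rac activator Tiam1 against ALSC (0.57). Nrcam, an adhesion molecule of the neuropilin complex, fell to 27.1 CPM in ABSC, against 74.6 CPM in ALSC (-1.46) and 76.4 CPM in AFSC (-1.50). Vav3, a signalling partner of Eph receptors, fell against AFSC (-1.73) and ALSC (-1.44). These calls held in every fit that left out 1 library. Srgap3 also rose against ALSC (0.53, edgeR adjusted p = 0.0389) and Tiam1 against AFSC (0.42, edgeR adjusted p = 0.0219). Of 9 fits that left out 1 library, 7 lost this Srgap3 call and 3 lost this Tiam1 call. The Srgap3 call was also lost with library size as the only scaling, without the filter on low counts and with only these 2 types in the fit. Flrt2, a ligand of Unc5 receptors, was at 0.186 CPM in ABSC, 1.049 CPM in ALSC and 1.21 CPM in AFSC and fell in ABSC against both (-2.46 against ALSC and -2.66 against AFSC). Its changes were -3.67 and -3.88 without ABSC 3, and its calls were lost without ABSC 2 (0.0785 and 0.0647), without ALSC 3 (0.0558, against ALSC) and without AFSC 3 (0.0528, against AFSC). Draxin, a netrin antagonist, fell in ABSC against ALSC (-2.36, edgeR adjusted p = 0.00198). Trio, a Rac activator, fell in ABSC (-0.45) and in ALSC (-0.54) against AFSC, with the call lost in 7 fits for ABSC (0.0510 to 0.186; all but AFSC 1 and ALSC 1) and without AFSC 2, AFSC 3 or ALSC 3 for ALSC (0.0582 to 0.109). In ALSC against AFSC Dpysl3 (0.53) and Gipc1 (0.38) rose and Crmp1 fell (-0.51), and each of these 3 calls was lost in 7 of 9 fits that left out 1 library, namely without number 2 or number 3 of any type and without AFSC 1 for Crmp1 or ALSC 1 for the others (0.0525 to 0.171).

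The libraries numbered 1 differed from numbers 2 and 3 for part of the members in each cell type. In 11 of the 60 tested members the 3 libraries numbered 1 lay outside the range of the other 6: 8 above, beside 9.30% of all genes tested, and 3 below, beside 9.41%. Sema6b was at 14.6, 17.8 and 11.9 CPM in ABSC 1, ALSC 1 and AFSC 1, against 3.13 to 6.57 CPM in the other 6 libraries. Efna1 was at 5.56 to 6.77 CPM in the libraries numbered 1, against 1.62 to 2.56 CPM, and Efna3 at 20.3 to 21.9 CPM, against 8.97 to 12.2 CPM. Ephb4, Plxnb2, Sema4g, Sema6c and Sema7a were likewise highest in the libraries numbered 1. Below the rest were Efnb2 (98.8 to 128 CPM, against 165 to 191 CPM), Epha4 (9.09 to 15.8 CPM, against 19.02 to 39.3 CPM) and Sema3a (0.442 to 0.772 CPM, against 1.08 to 1.77 CPM). None of these 11 was called between cell types by edgeR without the block. Choosing them by library number makes their cell types overlap, so the lack of calls says little about cell type. Without the 3 libraries numbered 1, 29 of the 56 members were called in ABSC against AFSC, 23 in ALSC against AFSC and 33 in ABSC against ALSC. All genes rose likewise, to 4622, 4122 and 5225 called of 16224 tested then. All 11, 8 and 17 calls of members given above were among the 29, 23 and 33. The labels do not say what a library number stands for. Deviations from the group means set number 1 apart but did not tell number 2 from number 3, so for these the block rests on the numbering alone.

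Leaving out ABSC 1 or ALSC 1 brought in calls for members not called with all 9 libraries, while leaving out AFSC 1 brought in none. In such a fit 1 cell type lacks its number 1 while the others keep theirs. Cell type and library number therefore cannot be fully told apart in these calls. Robo4 is left out here. Without ABSC 1, edgeR called Sema4d (-0.30, adjusted p = 0.0441) and Ntn4 (-1.11, 0.0329) lower in ABSC against AFSC, and Ntn4 lower in ABSC against ALSC (-1.02, 0.0396). It also called Efnb1 in ABSC (adjusted p = 0.00575) and in ALSC (0.00619) and Slit1 in ALSC (0.0461) against AFSC, Plxna1 in ALSC against AFSC (0.0327, and 0.0487 without ABSC 3), and Efna2 (0.0385), Plxnc1 (0.0282), Sema4g (0.0470), Sema5a (0.0120) and Unc5a (0.0155) in ABSC against ALSC. Without ALSC 1, it called Sema3b (0.0329), Sema3f (0.0174), Sema6a (0.00156) and Slit1 (0.0317) in ABSC against AFSC. It then also called Efnb1 (0.0345), Slit1 (0.0162) and Unc5b (0.00472) in ALSC against AFSC, and Efna4 (0.0441), Epha2 (0.0224), Sema3f (0.00366) and Sema6a (-0.61, 0.00511) in ABSC against ALSC. Where no change is printed here, the direction was that given above for the gene.

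**Figure D4:**
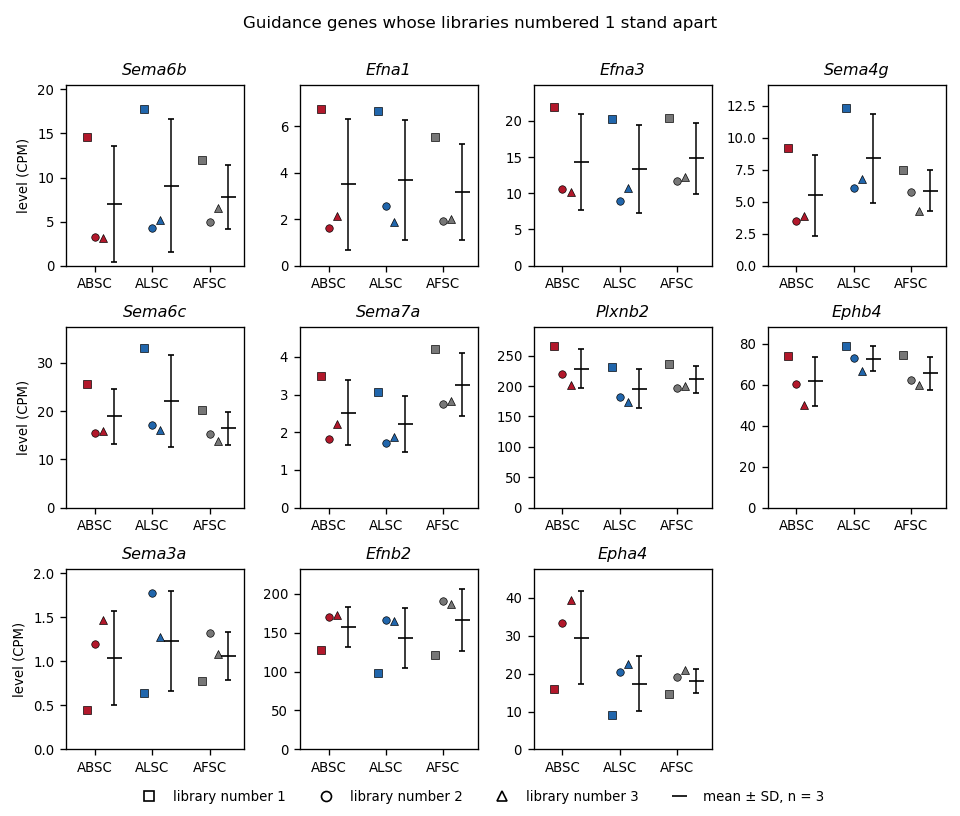
Level in each library (CPM) for the 11 guidance genes in which the libraries numbered 1 (squares) lie outside the range of numbers 2 and 3 (circles and triangles) over all cell types, with the mean and SD of 3 libraries. Squares are highest in 8 genes, such as Sema6b and Efna3, and lowest in Sema3a, Efnb2 and Epha4.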

How the data were processed

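Poly(A) RNA of 9 libraries was sequenced, 3 per cell type. Per the labels' protocols the NEBNext Ultra kit was used, which does not mark the strand. A separate RNA kit is named for ALSC in the labels, and 2 instruments are named, HiSeq X10 in the design text and an older HiSeq in the labels. The submitters' processing notes name HISAT2 2.0.5 and featureCounts 1.5.0-p3. The authors deposited unnormalised whole-number counts of reads for each gene. The notes name the build mm9, but 53499 of the 54409 table identifiers found in the GRCm38 annotation GENCODE M21 have its coordinates, as do 66 of the 67 members, so coordinates are read as GRCm38. The 346 rows without an Ensembl identifier (0.208% to 0.227% of counts) were left out.

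The analysis ran in R 4.3.3, with the quasi-likelihood test of edgeR 4.0.16: filterByExpr (minimum count 10, total 15), TMM factors of 0.963 to 1.06, 1 robust quasi-likelihood fit of all 9 libraries with 6 residual degrees of freedom, 2-sided F tests and Benjamini-Hochberg adjustment over 16178 genes at a threshold of 0.05. The pooled biological coefficient of variation was 0.147. CPM and RPKM were computed from the counts with these factors. The method was tested on simulated data. Alternatives were RLE factors, library size only, DESeq2 1.42.0, no filter on low counts, the library number as a replicate block, only 2 cell types in the fit, each library left out in turn, and all libraries numbered 1 left out. Libraries with the same number deviated together from their group means (9 pairs, r = 0.197 to 0.554, all above 0.1, and other pairs -0.426 to 0.273). Pairs of a number 2 with a number 3 gave 0.221 to 0.273, much as equal-number pairs of 2 or 3 did (0.197 to 0.356). The values thus set number 1 apart but do not pair 2 with 2 or 3 with 3. The block still gave each number its own level, a choice that the labels do not give. Floors are 3 counts per library and cover counting error only, since reads carry no molecular identifiers.

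Values per library are given for each member called in any comparison with a group mean of at least 1 CPM, and for further members chosen after their values were seen. Partner genes named are those called, at 1 CPM or more, up to 4 per direction by size of change. Neo1 and the further calls of Srgap3 and Tiam1 are named besides. The members and lists were chosen with earlier results of these data known. For 6 tested members exons overlap another tested gene.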

Additional observations from a re-analysis of the deposited data

How the results depend on the processing

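No member call changed direction under any alternative tried. Of 576 alternative values behind the 36 calls of the 56 members, 79 were not past the threshold. Over all 60 tested members, with the replicate block, members called numbered 22 (ABSC against AFSC), 20 (ALSC against AFSC), 33 (ABSC against ALSC) and 42 (any difference), and all genes 3132, 3590, 4605 and 5992. The block lost no member call, and among the 56 it changed no other call than those given as called with it. Without the 3 libraries numbered 1 the counts were 31, 24, 36 and 43 for members and 4622, 4122, 5225 and 7121 for all genes. DESeq2 called 13 members in ALSC against AFSC in place of 8, and 1706 genes in place of 1139. Only 2 cell types in the fit gave 1041 genes in ABSC against ALSC in place of 1775. Leaving out 1 library at a time gave 5 to 16, 5 to 11, 13 to 21 and 14 to 24 members, and 667 to 1723, 345 to 1522, 846 to 2337 and 1395 to 3048 genes, in the same order of comparisons. The cause was not tested. Some differences that were not called turned sign. Robo1 in ABSC against AFSC was -0.029 to 0.10 over the fits without 1 library (lowest without AFSC 1) and -0.083 without the libraries numbered 1, and Efna5 there was -0.077 to 0.16 (below 0 without ABSC 1 or AFSC 1) and -0.19. In ALSC against AFSC, Ephb3 ran from -0.41 to 0.038 (above 0 without ALSC 2 or ALSC 3), Slit2 from -0.0053 (without ALSC 1) to 0.25 and Vegfa from -0.20 (without ALSC 1) to 1.12. Vegfa in ABSC against ALSC ran from -1.18 to 0.35 (without ALSC 1). With all libraries Vegfa gave 0.51 in ALSC against AFSC and -0.36 in ABSC against ALSC. It stood at 64.9 to 96.4 CPM in the libraries numbered 1 and at 23.1 to 33.9 CPM in the others. At 3 libraries per type, members below about 1 CPM rest on few counts, as for Unc5c, Nrp1, Sema3g and Plxna4.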

Other observations

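The VEGF ligands and receptors, which share neuropilins with the class 3 semaphorins, gave 8 tested genes and 0 called by edgeR in each comparison. At an unadjusted p under 0.05 there were 2 (Flt1 and Kdr) in ABSC against AFSC, 1 (Flt1) in ALSC against AFSC and 1 (Vegfc) in ABSC against ALSC. DESeq2 called Flt1 in ABSC and in ALSC against AFSC and 0 genes in ABSC against ALSC. Flt1, a VEGF receptor, averaged 31.6 CPM in ABSC, 30.5 CPM in ALSC and 46.9 CPM in AFSC. With the replicate block Kdr (1.64 and 1.06 on the log2 scale) and Flt4 (0.61 and 0.61), both VEGF receptors, were higher in ABSC and in ALSC than in AFSC. Vegfa, a ligand, was higher in ALSC than in AFSC (0.48) and lower in ABSC than in ALSC (-0.40), and Vegfc, another ligand, was higher in ABSC than in ALSC (1.18). Kdr averaged 1.91 CPM in ABSC, 1.34 CPM in ALSC and 0.632 CPM in AFSC, and Flt4 averaged 15.3, 15.3 and 9.69 CPM.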
